A study of Mastomys natalensis with 4 samples.

Results

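The genes described here are 10 genes of the vascular endothelium and of angiogenesis, the growth of new vessels from existing ones. They are the growth factor Vegfa, its receptors Kdr and Flt1, the receptor kinases Tek and Tie1, the surface proteins Pecam1, Icam2 and Cd34, the TGF-beta co-receptor Eng and the vasoactive peptide Edn1. Every probe set that the platform's annotation assigns to 1 of these symbols alone was taken, which gave 14 of the 12488 probe sets on the array and covered all 10 genes. The arrays hold mouse probes (Affymetrix mouse U74, per the labels), while the RNA was from stomach mucosa of Mastomys natalensis, a rodent of Africa in which long acid suppression leads to tumours of the histamine-producing enterochromaffin-like (ECL) cells. All 4 samples came from animals given loxtidine, which the labels write as loxitidine and which blocks the histamine H2 receptor. There were 2 samples after 8 weeks, labelled as ECL cell hyperplasia, and 2 after 16 weeks, labelled as ECL cell neoplasia. Age and strain are not given in the labels, and untreated mucosa was not analysed here, so drug exposure is shared by both groups and treatment time and lesion stage cannot be told apart.

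Vascular endothelial growth factor A is secreted by epithelial, stromal and tumour cells and acts on endothelial cells through 2 receptor tyrosine kinases. Kdr (VEGFR2) carries most of the signal for growth and permeability, and Flt1 (VEGFR1) binds the ligand tightly but signals weakly, so that it also acts as a decoy. Tek (Tie2) is the receptor of the angiopoietins, which control vessel stability, and Tie1 is its partner without a classical ligand of its own. In the stomach a dense capillary network runs between the glands up to the surface epithelium.

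The measurement is an intensity for each probe set and array, as deposited by the authors. Median intensities of the arrays lay between 15.4 and 19.2, and the share of probe sets above 12.15, the floor under which values were treated as not measured, ranged from 55.3% to 62.4%. The gastric origin was borne out by the proton pump subunit Atp4a, with 8-week values of 4442 and 5304 and 16-week values of 4850 and 4034. Atp4a cannot tell mucosa from the whole stomach wall. The smooth muscle gene Actg2 was also bright, at 1786 and 1437 in the 8-week samples and 849 and 866 in the 16-week samples. Mismatch between Mastomys transcripts and mouse probes lowers the signal by an amount that differs between probe sets, so differences are taken between samples for the same probe set, and low signal is no proof that a transcript was missing. The number of arrays limits the precision. Whether the 2 samples of each group are separate animals is not stated in the labels. The p-values therefore reflect only the variation among these samples, pooled in part over all tested probe sets. Part or all of that variation could be technical.

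The comparison of 16 with 8 weeks addresses how vessel-related transcripts differed between the hyperplastic and the neoplastic stage. The 10 genes did not move in a single direction. Kdr, Tek, Pecam1 and Vegfa read higher at 16 weeks, whereas Tie1, Cd34 and Flt1 read lower and Eng and the brighter Edn1 probe set lay close to their 8-week level. Of the higher genes, Vegfa had overlapping groups, and Tek could be tested only through its 16-week values, which fixed its direction. No probe set passed the test: limma with Benjamini-Hochberg adjustment over 7883 tested probe sets called 0 of the 11 tested probe sets of these genes, whose adjusted p ranged from 0.338 to 0.952. It called 0 (0%) of all tested probe sets, with a smallest adjusted p of 0.301. At an unadjusted p under 0.05 there were 2 of these 11 probe sets, against 14.0% of all tested probe sets: 1 was higher at 16 weeks, that of Kdr (8.08% of all tested), and 1 lower, that of Tie1 (5.87%). A probe set was tested when it exceeded the floor on 2 or more of the 4 arrays. Of the other 3 probe sets, 2 were below the floor on every array and 1 exceeded it on 1 array.

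Differences are given as log2 of intensity, 16 weeks minus 8 weeks, for n = 2 samples per group. The standard error (SE) is the moderated one from limma. It draws each probe set's own spread toward a spread shared by all tested probe sets, so it is not that probe set's spread alone. Over the 9 genes with a tested probe set, each represented by its brightest one, the differences ranged from -0.73 to 0.79 with a median of -0.035, and 4 were above and 5 below 0. The median over all tested probe sets was 0.086, and 56.3% of them had a difference above 0. The 8-week and 16-week values did not overlap for 8 of the 11 tested probe sets, 4 higher and 4 lower at 16 weeks, where 28.7% and 20.6% of all tested probe sets did so in these directions (49.3% in all). The 4 higher are Kdr, Tek, Pecam1 and the dimmer Edn1 probe set, the last by 24.5 against 24.2 at the nearest values. Tek entered the test through its 16-week values alone, so it could not have been tested without lying higher there. Among the 9 probe sets of these genes above the floor on all 4 arrays, 6 did not overlap, 2 higher (Kdr and the dimmer Edn1 probe set) and 4 lower, against 48.8% of all probe sets of that kind.

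**Figure D1:**
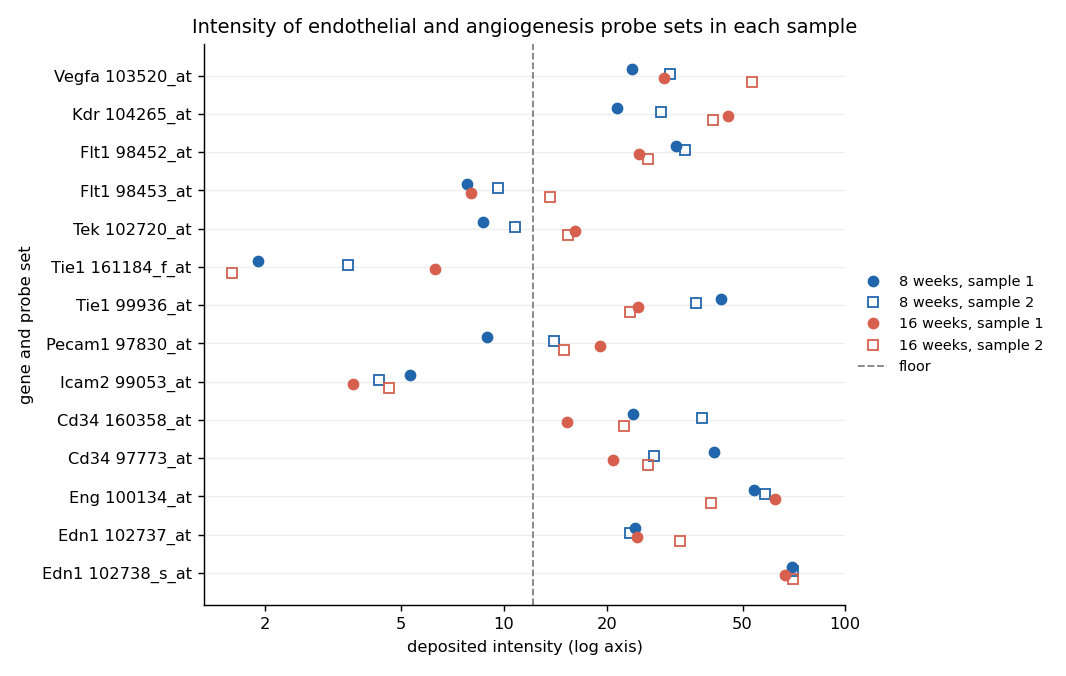
Deposited intensity (log axis) of each of the 14 probe sets in the 4 samples, blue for 8 weeks and red for 16 weeks, filled circles for sample 1 and open squares for sample 2; the dashed line is the floor of 12.15. Kdr, Tek, Pecam1 and, by a margin of 24.5 against 24.2, the dimmer Edn1 probe set (102737_at) have both red symbols to the right of both blue ones, Tie1 (99936_at), Flt1 (98452_at) and both Cd34 probe sets to the left, and Icam2 and the second Tie1 probe set lie under the floor throughout.

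The ligand Vegfa (103520_at) read 23.8 and 30.6 in the 8-week samples and 29.5 and 53.2 in the 16-week samples. The groups overlapped, because 16-week sample 1 lay within the 8-week range and only 16-week sample 2 stood above it. The difference was 0.55 ± 0.37 (SE), which is 1.47-fold, with a limma adjusted p of 0.516. The log2 ratio of sample 2 over sample 1 at 16 weeks was 0.85, larger than the difference between the groups. Without 16-week sample 2 the difference was 0.13, and without 16-week sample 1 it was 0.98.

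Kdr, the main signalling receptor, had the largest upward difference among the tested probe sets of the 10 genes. Its probe set (104265_at) read 21.4 and 28.9 in the 8-week samples and 45.2 and 41.1 in the 16-week samples, and both 16-week samples lay above both 8-week samples. The difference was 0.79 ± 0.27, or 1.73-fold, with an unadjusted p of 0.0317 and a limma adjusted p of 0.340. A larger absolute difference was found in 14.6% of all tested probe sets. With a sample left out the difference of Kdr lay between 0.58 and 1.01.

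The decoy receptor Flt1 went the other way on the probe set that could be tested. That probe set (98452_at) read 32.0 and 34.0 in the 8-week samples and 24.8 and 26.4 in the 16-week samples, a difference of -0.37 ± 0.23 with a limma adjusted p of 0.501. The samples of each group lay close together, with log2 ratios of 0.087 at 8 weeks and 0.090 at 16 weeks, and the groups did not overlap. A second Flt1 probe set (98453_at) read 7.8 and 9.6 against 8.0 and 13.6, above the floor in 1 sample only, and was not tested. Within each array the ratio of the Kdr to the Flt1 signal was 0.669 and 0.850 in the 8-week samples and 1.82 and 1.56 in the 16-week samples. A single scaling factor per array cancels in this ratio, while quantile normalization can alter it. It was chosen after the values were seen and is given without a test, and only its change and not its level can be read, because brightness is not comparable between probe sets of different sequence.

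The angiopoietin receptor Tek and its partner Tie1 also lay apart. Tek (102720_at) read 8.7 and 10.8 at 8 weeks, both under the floor, and 16.2 and 15.4 at 16 weeks, both a little above it. The 16-week level was therefore at least 1.30-fold higher than the floor value that stands for 8 weeks (log2 difference 0.38 ± 0.23, limma adjusted p = 0.485). Tie1 (99936_at) read 43.3 and 36.5 in the 8-week samples and 24.7 and 23.4 in the 16-week samples, with both 16-week samples below both 8-week samples. Its difference was -0.73 ± 0.24, a 1.65-fold lower level, with an unadjusted p of 0.0301 and a limma adjusted p of 0.338, the smallest among the 10 genes. The other Tie1 probe set (161184_f_at) read 1.9 and 3.5 against 6.3 and 1.6 and gave no measurement. With values below the floor set to it, the ratio of Tek to Tie1 within an array was 0.281 and 0.333 at 8 weeks, both upper bounds, and 0.656 and 0.658 at 16 weeks. This ratio too was chosen after its values were seen.

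The surface proteins that mark endothelium gave both directions. Pecam1 (97830_at), the CD31 adhesion molecule of endothelial junctions, which platelets and leukocytes also carry, read 8.9 and 14.0 in the 8-week samples and 19.1 and 15.0 in the 16-week samples. The groups did not overlap, but 8-week sample 2 and 16-week sample 2 lay close together, and 8-week sample 1 was under the floor. This gave 0.38 ± 0.26 (limma adjusted p = 0.529). Icam2 (99053_at), an adhesion molecule of resting endothelium and leukocytes, read 5.3, 4.3, 3.6 and 4.6, under the floor on all 4 arrays, and was not tested.

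Cd34, a sialomucin of capillary endothelium that also marks blood progenitors and some fibroblasts, was measured by 2 probe sets above the floor on every array. The brighter (97773_at) read 41.3 and 27.5 in the 8-week samples and 20.8 and 26.4 in the 16-week samples (-0.52 ± 0.31; limma adjusted p = 0.478). The dimmer (160358_at) read 23.9 and 38.0 against 15.3 and 22.4 (-0.70 ± 0.36; limma adjusted p = 0.422). Both were lower at 16 weeks without overlap. They disagreed on which 8-week sample was the higher, sample 1 on the first and sample 2 on the second. On the brighter probe set the log2 ratio of sample 2 over sample 1 at 8 weeks, -0.59, was larger in size than the difference between the groups. Leaving out 8-week sample 1 gave -0.23, and leaving out 8-week sample 2 gave -0.82.

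Endoglin (Eng, 100134_at), which presents TGF-beta and BMP9 to their endothelial receptors, read 53.9 and 58.1 in the 8-week samples and 62.4 and 40.5 in the 16-week samples. The 16-week samples lay on either side of the 8-week samples, for a difference of -0.15 ± 0.30 (limma adjusted p = 0.823). Without 16-week sample 2 the difference was 0.16, so its sign rested on that array. Endothelin 1 (Edn1), a vasoconstrictor peptide made by endothelium and epithelium, had the smallest difference of the 11 tested probe sets on the brighter of its own pair. That probe set (102738_s_at) read 69.8 and 70.5 in the 8-week samples and 66.8 and 70.2 in the 16-week samples, a difference of -0.035 ± 0.23 with a limma adjusted p of 0.952. The dimmer (102737_at) read 24.2 and 23.4 against 24.5 and 32.9 (0.25 ± 0.27; limma adjusted p = 0.664), where 16-week sample 2 alone stood clear of the other samples and 16-week sample 1 lay just above the higher 8-week value.

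**Figure D2:**
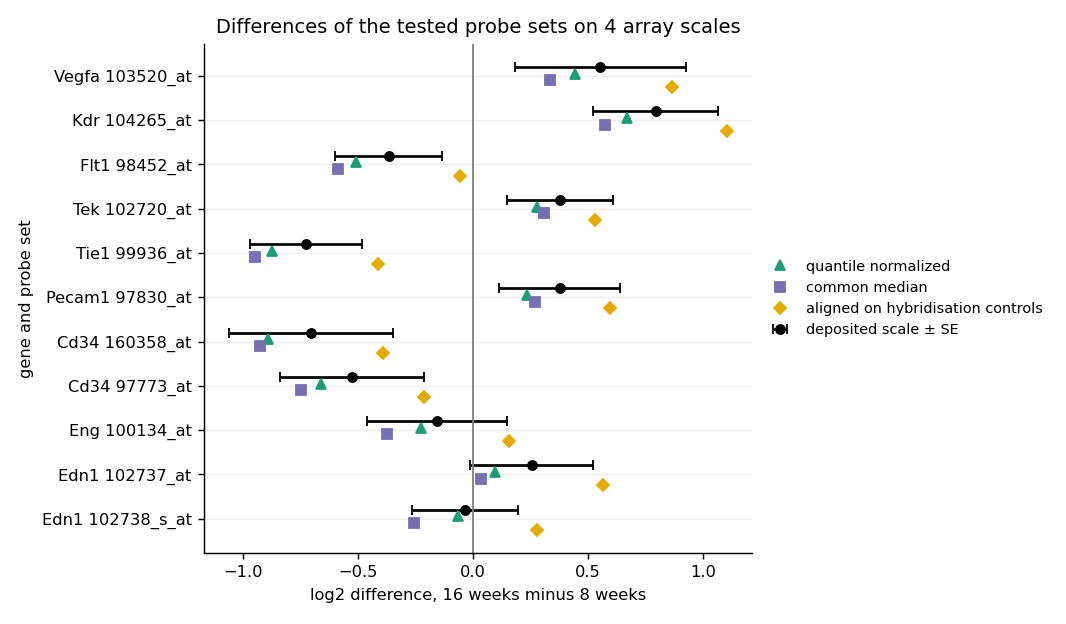
Log2 difference, 16 weeks minus 8 weeks, of the 11 tested probe sets on the deposited scale (black circles with limma's moderated SE, n = 2 samples per group) and on 3 other scalings of the arrays (coloured symbols). Aligning on the hybridisation controls moves every probe set to the right and putting the arrays on a common median moves every probe set to the left; Kdr, Vegfa, Tek and Pecam1 stay above 0 and Tie1, Cd34 and Flt1 below it on all 4 scales, while Eng and the brighter Edn1 probe set change sign.

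How the arrays are put on a common scale moved the differences, by like amounts for 1 factor per array and unlike amounts for quantile normalization. The median over all tested probe sets was 0.086 on the deposited scale, 0.024 once quantile normalized, -0.11 where all arrays shared a common median and 0.36 when aligned on the bacterial hybridisation controls, transcripts spiked in for quality control. Relative to the median of its scale, Kdr lay at 0.71 on the deposited scale and 0.64 after quantile normalization, and Tie1 at -0.81 and -0.90. Scaling by 1 factor per array shifts all probe sets above the floor alike, so the other 2 scales say nothing further about the order of the genes. On the scale of the hybridisation controls itself Flt1 was at -0.054, near no difference, Eng at 0.16 and the brighter Edn1 probe set at 0.28.

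Most of these probe sets were dim, with mean intensities between 12.8 and 69.3 for the tested ones, and low brightness went with higher values at 16 weeks over the whole array. Split into 3 bins of nearly equal size by brightness, the tested probe sets had a median difference of 0.20 in the dim bin, 0.14 in the middle bin and -0.079 in the bright bin. Tek and Pecam1, both higher at 16 weeks by 0.38, belong to the dim bin, where 66.4% of probe sets had a difference above 0. Kdr, Vegfa, Flt1, Tie1, Eng, both Cd34 probe sets and the dimmer Edn1 probe set belong to the middle bin, so that the opposite differences of Kdr and Tie1 were measured at similar brightness. In that bin 29.3% of probe sets were higher and 17.4% lower at 16 weeks without overlap. The part of brightness in the differences of Tek and Pecam1 was not tested.

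**Figure D3:**
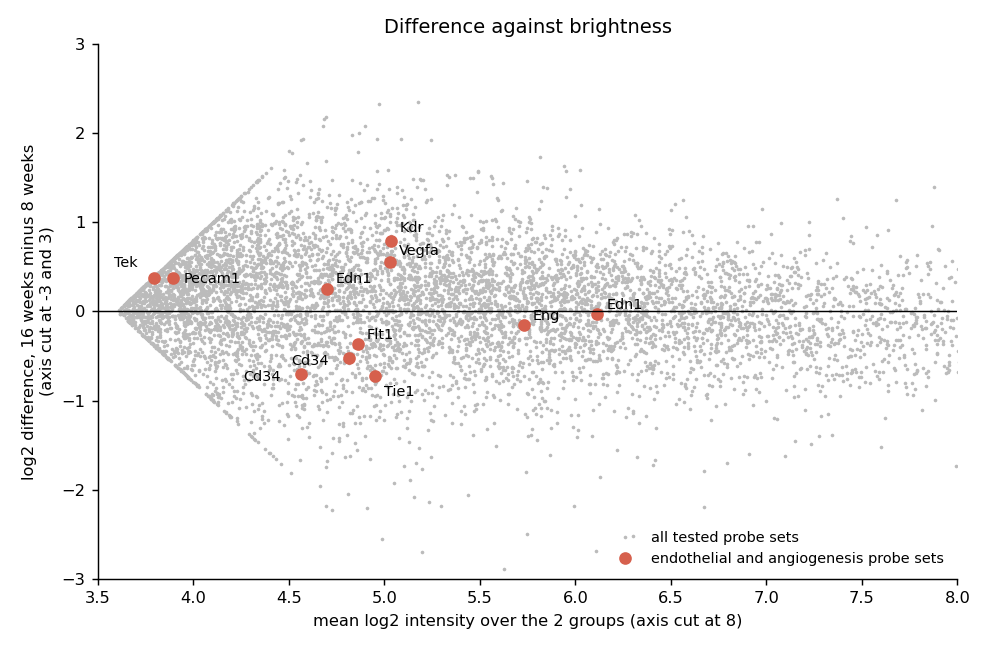
Log2 difference, 16 weeks minus 8 weeks, against mean log2 intensity for the tested probe sets (grey; points beyond the axis limits are not shown) with the 11 probe sets of the endothelial and angiogenesis genes in red. The red points lie inside the grey cloud at their brightness, with Kdr at 0.79 and Tie1 at -0.73 close to each other on the horizontal axis; the straight left edges of the cloud come from the floor.

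Other genes of the same pathways were read from 8 lists of VEGF and angiopoietin, endothelial surface, transcription factor, endothelin, TGF-beta, Notch and ephrin, hypoxia and angiogenesis-inhibitor genes. Of the 75 tested genes in these lists limma called 0, with a smallest adjusted p of 0.301, and 12 had an unadjusted p under 0.05, where 14.0% of all tested probe sets did. At 16 weeks 36 lay higher and 39 lower (median difference -0.024), and 36 did not overlap between groups, against the 49.3% of all tested probe sets given above. Counts and medians of the lists are those on the deposited scale; with the arrays aligned on the hybridisation controls the medians of all 8 lists were above 0, from 0.024 to 0.60. With 1 or another of the 4 samples left out the sign of the median turned in each of the 8 lists.

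Among other ligands and receptors of the VEGF and angiopoietin families and the adaptors that carry their signal, 5 of 10 tested genes were higher and 5 lower, with a median of -0.043. Flt4 (VEGFR3), the receptor of lymphatic endothelium, read 11.2 and 22.2 in the 8-week samples and 25.2 and 34.5 in the 16-week samples (0.84 ± 0.38; limma adjusted p = 0.391). Its groups did not overlap, as for Kdr, but 8-week sample 1 lay under the floor. The adaptor Shc1 read 27.5 and 5.9, the second under the floor, against 52.6 and 36.5 (1.26 ± 0.47; limma adjusted p = 0.349). With a sample left out its difference lay between 0.67 and 1.85. The other tested genes lay between -0.35 and 0.43. The angiopoietins are named here as the ligands of Tek, after their values were seen. Angpt2 read 2.9 and 1.3 against 20.8 and 12.9, at least 1.35-fold higher at 16 weeks (limma adjusted p = 0.545). Like Tek, Angpt2 entered the test through its 16-week values alone and had to lie higher. Angpt1 gave -0.091 ± 0.27 (limma adjusted p = 0.886).

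The list of other endothelial surface and junction genes had 24 genes on the array, of which 10 could be tested, 5 higher and 5 lower with a median of -0.079. Among the 5 higher, Ptprm entered the test through its 16-week values alone and had to lie higher. Ramp2, a partner of the adrenomedullin receptor needed for vessel integrity, read 71.9 and 54.6 in the 8-week samples against 29.3 and 10.5 in the 16-week samples (-1.73 ± 0.48; limma adjusted p = 0.320). Caveolin 1 (Cav1), the coat protein of caveolae in endothelium, smooth muscle and fat, read 69.4 and 60.1 against 43.4 and 32.4 (-0.78 ± 0.27; limma adjusted p = 0.343). Both genes had all 16-week values below all 8-week values. The second 16-week value of Ramp2 was under the floor, and with a sample left out its difference lay between -2.37 and -1.10. In the other direction Vcam1, named after its values were seen, was higher without overlap (0.76 ± 0.29; limma adjusted p = 0.353). The defining endothelial genes Cdh5 (VE-cadherin) and Vwf (von Willebrand factor) gave little measurement. Cdh5 read 13.1 and 10.9 against 6.1 and 28.9, around the floor, and the 2 Vwf probe sets reached at most 14.3 with a single value above the floor. Thus of the classical endothelial markers Pecam1 and Cdh5 were near the floor and Icam2 and Vwf almost wholly under it.

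Endothelial transcription factors had 5 of 11 tested genes higher and 6 lower, with a median of -0.024. The ETS factor Fli1, active in endothelium and blood cells, read 27.7 and 23.4 against 13.2 and 18.1 (-0.72 ± 0.28; limma adjusted p = 0.357), and Elk3 gave 0.42 ± 0.25. Of the endothelin and vasoactive list 2 of 6 tested genes were higher and 4 lower, with a median of -0.22. Prostacyclin synthase (Ptgis), the vessel wall enzyme that makes prostacyclin, read 27.7 and 25.6 in the 8-week samples and 6.1 and 5.6 in the 16-week samples. As both 16-week values were under the floor, its level at 8 weeks was at least 2.19-fold higher (limma adjusted p = 0.301). Ptgis entered the test through its 8-week values alone and had to lie lower at 16 weeks. The natriuretic peptide Nppa gave 0.45 ± 0.24. The genes for endothelins 2 and 3, the endothelin receptor Ednrb and endothelial nitric oxide synthase (Nos3) were too dim to test.

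Around Eng, the list of TGF-beta and BMP receptors and targets had 8 of 12 tested genes higher and 4 lower, with a median of 0.24 that was 0.020 once the arrays shared a common median. Id2, a BMP target, gave -0.71 ± 0.24 and Smad3, with both 8-week values under the floor, was at least 1.54-fold higher at 16 weeks. Smad3 entered the test through its 16-week values alone and had to lie higher. The Notch and ephrin list had 2 of 6 tested genes higher and 4 lower, with a median of -0.023 that became 0.037 after quantile normalization, and the arterial ligand Efnb2 gave -0.76 ± 0.48. Notch4, a Notch receptor of endothelium, gave 0.55 ± 0.57, and its sign turned without 16-week sample 1 (-0.24).

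Vegfa is induced in hypoxia, and the hypoxia-inducible factor pathway had 5 of 13 tested genes higher and 8 lower, with a median of -0.28 (0.037 with the arrays aligned on the hybridisation controls). Lactate dehydrogenase A (Ldha), a glycolytic target, read 741 and 590 against 261 and 266 (-1.33 ± 0.25; limma adjusted p = 0.301), whereas the haem-degrading enzyme Hmox1 gave 0.69 ± 0.25. The transcription factor Hif1a itself read 434 and 254 against 397 and 190, higher in sample 1 of both groups. Angiogenesis inhibitors had 4 of 7 tested genes higher and 3 lower, with a median of 0.29, which was 0.074 after quantile normalization, 0.072 on a common median and -0.040 without 8-week sample 1. Platelet factor 4 (Pf4) gave at least 1.58-fold higher values at 16 weeks, from 3.8 and 10.2 to 17.7 and 20.7. Sparc, a matrix-associated protein, read 18.2 and 17.3 against 5.7 and 4.9, at least 1.46-fold lower. Pf4 entered the test through its 16-week values alone and Sparc through its 8-week values alone, so their directions were fixed by the filter.

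**Figure D4:**
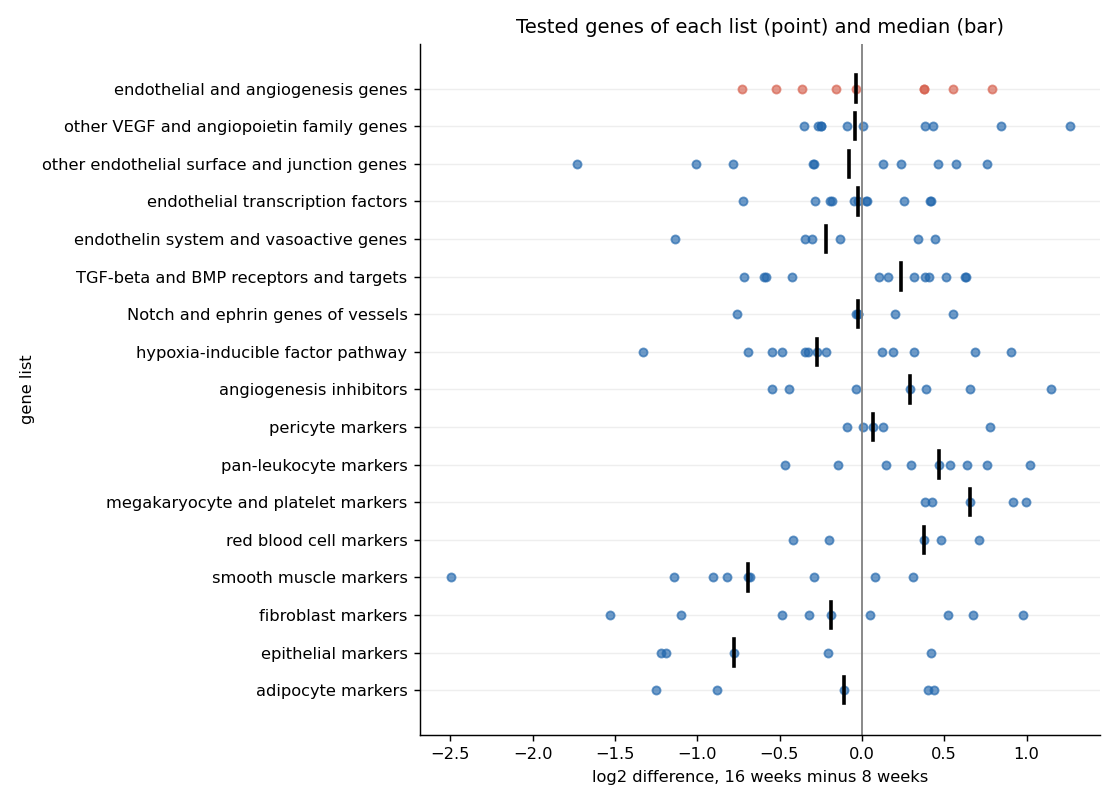
Log2 difference, 16 weeks minus 8 weeks, on the deposited scale for the tested genes of each list (points, brightest probe set of each gene) with the list's median (black bar); the endothelial and angiogenesis genes are in red. The red points spread from -0.73 to 0.79 around a median of -0.035. The medians of several other lists lie further from 0, most of all those of the epithelial (-0.78) and smooth muscle (-0.69) lists.

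Bulk mucosa mixes vessels with other cells, and fewer cells of a type cannot be told apart from less RNA per cell. Most tested blood cell markers lay higher at 16 weeks, as Pecam1 did, where 56.3% of all tested probe sets had a difference above 0. Of the pan-leukocyte list 7 of 9 tested genes were higher, with a median of 0.47 that was 0.25 on a common median and 0.16 without 8-week sample 1. Sums over a list, given here, weight each gene by the brightness of its probe set. The summed intensity of its 12 genes was 375 and 453 at 8 weeks and, at 16 weeks, 580 and 546, while the defining marker Ptprc (CD45) was too dim to test. The megakaryocyte and platelet list had 8 genes on the array, which summed to 129 and 162 against 225 and 219. Of its 5 tested genes Gp5 and Pf4 entered the test through their 16-week values alone and had to lie higher. The 3 genes above the floor on all 4 arrays (F2rl2, Gp9 and F2r) were higher, with a median of 0.43. The groups of F2r overlapped (52.4 and 67.1 against 94.1 and 63.5). Without F2r, the brightest, the list summed to 76.7 and 94.6 against 131 and 156. The red blood cell list had 3 of 5 tested genes higher, with a median of 0.38, but its most specific genes were split, with Hbb-b2 at 0.48 ± 0.30 and Hba-a1 at -0.42 ± 0.30. No marker in these 3 lists read 0 on any array, and on a common median that of the red blood cell list was 0.15. Their part in the higher Pecam1 values was not tested.

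Wall and stromal markers lay lower or were mixed beside Tie1 and Cd34. Smooth muscle markers were lower for 7 of 9 tested genes (median -0.69), and the 10 genes on the array summed to 3412 and 2941 at 8 weeks and to 1822 and 1760 at 16 weeks (without Actg2, the brightest, to 1626 and 1503 against 973 and 894). The fibroblast list had 5 of 9 tested genes lower, with sums of 3639 and 3173 against 2437 and 2320. Its median of -0.19 became 0.12 on the scale of the hybridisation controls. It was -0.32 without shared or reduced probe sets and -0.42 where the probe sets of a gene were averaged. Without Col3a1, a fibrillar collagen and the brightest gene, the sums were 1691 and 1893 against 1852 and 1811. The remaining genes were split. Pdgfra (-1.10) and Col1a1 (-0.49) were lower, and Mfap5 (0.98), Dcn (0.68) and Col1a2 (0.52, a reduced probe set) were higher. The epithelial list had 4 of 5 tested genes lower, with sums of 3428 and 2526 against 1895 and 1494. Its median of -0.78 shrank to -0.10 without the filter on dim probe sets, to -0.20 when the floor was lowered and to -0.42 once the arrays were quantile normalized. The adipocyte list had 3 of 5 tested genes lower, with a median of -0.11 that became 0.0071 after quantile normalization and 0.21 on the scale of the hybridisation controls. Its gene Adipoq entered the test through its 16-week values alone and had to lie higher. The 3 adipocyte genes above the floor on all 4 arrays were lower, with a median of -0.88. The pericyte list had 4 of 5 tested genes higher and a median of 0.066, which turned to -0.020 (quantile normalized) and -0.12 (common median). The largest difference was 0.78 for Pdgfb, the ligand of the pericyte receptor Pdgfrb rather than a pericyte marker itself. Notch3, Rgs5 and Pdgfrb gave 0.13, 0.066 and 0.0054. No marker in these 5 lists read 0 on any array. None of these genes passed limma's test over all probe sets, and their part in the lower values of Tie1 and Cd34 was not tested.

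The pattern of Pecam1 over the 4 samples was shared by many unrelated probe sets. Values under the floor were set to it, and log2 values were centred on their mean. Of 5855 other genes, 155 lay within a root mean square distance of 0.1. The nearest were Dynlrb1, Spata13, Lsm14a, Eif2b4 and Epha5, at distances between 0.0184 and 0.0282. Among the 10 genes themselves Tek was nearest to Pecam1 (0.121), followed by Kdr (0.236), and Cd34 was farthest (0.584). For Vegfa 15 genes lay within that distance, and the nearest were Bms1, Homer3, E2f1, U90926 and Exosc8, at 0.0442 to 0.0724, each of them highest in 16-week sample 2. These distances describe 4 samples and carry no test.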

How the data were processed

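Total RNA of gastric mucosa was measured on 1 array per sample, 2 samples per group. The deposited table gives the authors' intensity for each probe set on a linear scale; its computation and scaling are not given in the sources used here. Trimmed means of the arrays (2% off each end) lay within 4.76% of their common mean, and the deposited scale was kept. Probe sets were named from the platform's annotation of mouse genes, which can be old. Besides 66 controls there were 12422 probe sets, of which 10833 had 1 symbol, 396 several and 1193 none here.

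Values under the floor (12.15, the median over arrays of the 40th percentile) were set to it and log2 was taken. Probe sets above it on at least 2 arrays (7883) were compared with limma 3.58.1 (R 4.3.3; lmFit, eBayes, 2-sided, Benjamini-Hochberg adjustment, threshold 0.05). An exact permutation test of 2 against 2 samples cannot give a p below 0.333. The hybridisation controls used as a scale were 14 probe sets. The brightest tested probe set stood for each gene. Up to 2 genes per list with the smallest p were named. Other genes were named as background markers or for contrast after their values were seen. The members and lists were chosen with earlier results of these data known, and lists are described by counts and medians without a test. The code was tested on simulated data. No sequence or genome was used here, so no coordinates or sequences are given.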

Additional observations from a re-analysis of the deposited data

How the results depend on the processing

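The count of member probe sets past limma's threshold was 0 under all 14 alternatives that refit the test, and so was the count of related genes. Over all probe sets the count was 0 except without the filter on dim probe sets, where it was 22 of 12422 (none of them a member); the cause was not tested. The median difference of the member genes, -0.035, was -0.26 with the arrays on a common median, 0.28 with the arrays aligned on the hybridisation controls, -0.15 with probe sets above the floor on all 4 arrays (7 genes), 0.25 without shared or reduced probe sets, which drops the brighter Edn1 probe set, and 0.11 where the probe sets of a gene were averaged. With a sample left out it lay between -0.042 and 0.13, above 0 without either 16-week sample. Of the 11 tested probe sets 9 kept their direction in every alternative. The brighter Edn1 probe set reversed to 0.28 on the scale of the hybridisation controls and lay between -0.071 and 0.0010 with a sample left out, and Eng reversed to 0.16 on that scale and lay between -0.47 and 0.16 with a sample left out. Kdr and Tie1 had an unadjusted p above 0.05 without 8-week sample 1, without either 16-week sample and with a trended and robust spread; that of Kdr alone was also above 0.05 on a common median, and that of Tie1 alone on the scale of the hybridisation controls and with log2(value + 16). The replicate numbers did not pair the samples (correlation of same-numbered deviations -0.050 over probe sets); with the replicate block 0 member probe sets passed, the smallest adjusted p was 0.398, and 0 of the 11 had an unadjusted p under 0.05, against 2 without it. Signal near the floor limits Tek, Pecam1, Icam2 and the second Flt1 and Tie1 probe sets.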
